A study of Mus musculus with 9 samples.

Results

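Kupffer cells, the resident macrophages of the liver, were followed through 10 marker genes: Clec4f, Vsig4, Timd4, Cd5l, Marco, Adgre1, Cd163, C1qa, C1qb and C1qc. The genes were taken as a fixed list of symbols, and each was read from the 1 probe set that carries its symbol alone, so the 10 genes are 10 of the 22180 genes tested. Liver total RNA was hybridised to whole-transcript microarrays on 9 arrays, 3 for each group of mice. The regular-diet group (RD) and the high-fat-diet group (HFD) were given vehicle by mouth, and the third group (GFB) ate the high-fat diet and received an extract of ginseng flower buds at 500 mg/kg. Dosing was daily and lasted 12 weeks. All mice were of the C57BL/6 strain per the growth protocol (the strain field reads C56BL/6J) and carried no stated genetic change. Per that protocol they were 5 weeks old at the start, before the 12 weeks of dosing. They were fasted overnight before the liver was taken. Values are log2 expression, so a difference of 1 is a doubling of the signal, and differences are given as log2 units ± standard error with 3 arrays per group. None of the 10 genes differed between any pair of groups by the criterion used, but their signals varied widely among arrays of one group, and mostly in the same arrays.

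Kupffer cells line the liver sinusoids, where they take up bacteria, dying cells, old red blood cells and modified lipoproteins from portal blood. Their identity depends on signals from neighbouring endothelial cells, stellate cells and hepatocytes and on transcription factors that include Spi1, Nr1h3, Spic and Id3. In fatty liver disease, resident cells can be lost and replaced by recruited monocytes that gain only part of the resident programme, and Timd4 and Clec4f are often used to tell resident cells from recent arrivals. In whole-liver RNA, fewer cells of a type and less RNA per cell cannot be told apart.

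Array medians lay between 4.34 and 4.38, and the correlation of any 2 arrays over genes was 0.991 to 0.994 in the same group and 0.987 to 0.993 in different groups. On every array, all 10 genes exceeded 4.74, the median of the gene means, the lowest value being 5.09 for Timd4. The 7 measured hepatocyte markers were at 11.47 or higher in every array, and 6 of 7 lymphocyte markers and 5 of 6 neutrophil markers were under 4.74 in every array. Whether the 3 arrays of a group are from different mice is not stated, so p-values measure only the spread between these arrays, which may be technical.

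The start-site sequences of 5 of the genes are shown because these are the Kupffer-restricted lectin gene (Clec4f), the pair with the highest Pearson correlation over the 9 arrays (Vsig4 and Timd4), and neighbouring genes of the complement C1q group (C1qb and C1qc). RefSeq promoters of the mouse build GRCm38.p6 were found for 8 of the 10 genes by symbol, and each run below holds the 250 bases before the annotated start, 5′ to 3′. Capitals mark GAGGAA or GGAAGT on either strand, which are core letters of sites bound by Spi1, the transcription factor needed for macrophage development, and by other factors of its family.
Clec4f, chr6:83656117-83656366, minus strand: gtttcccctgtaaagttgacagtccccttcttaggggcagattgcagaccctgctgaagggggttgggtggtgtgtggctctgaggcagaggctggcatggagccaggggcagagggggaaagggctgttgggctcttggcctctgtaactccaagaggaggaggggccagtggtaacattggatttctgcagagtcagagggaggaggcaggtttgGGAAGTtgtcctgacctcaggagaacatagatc
Vsig4, chrX:96293439-96293688, minus strand: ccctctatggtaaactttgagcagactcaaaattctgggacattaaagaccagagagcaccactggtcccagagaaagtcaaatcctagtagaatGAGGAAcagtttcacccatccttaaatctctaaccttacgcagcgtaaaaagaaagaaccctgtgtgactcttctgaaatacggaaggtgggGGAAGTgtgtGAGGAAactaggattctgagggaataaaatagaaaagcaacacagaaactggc
Timd4, chr11:46810549-46810798, plus strand: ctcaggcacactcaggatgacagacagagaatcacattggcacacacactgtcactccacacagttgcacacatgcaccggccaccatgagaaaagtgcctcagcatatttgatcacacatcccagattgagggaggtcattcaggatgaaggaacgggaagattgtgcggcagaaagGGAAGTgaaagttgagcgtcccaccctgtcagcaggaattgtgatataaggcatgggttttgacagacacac
C1qb, chr4:136886201-136886450, minus strand: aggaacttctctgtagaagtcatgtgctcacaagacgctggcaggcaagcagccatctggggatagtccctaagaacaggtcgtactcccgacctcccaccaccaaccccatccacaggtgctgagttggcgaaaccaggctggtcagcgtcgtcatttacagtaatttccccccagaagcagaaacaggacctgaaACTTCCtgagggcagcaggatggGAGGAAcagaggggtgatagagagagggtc
C1qc, chr4:136892915-136893164, minus strand: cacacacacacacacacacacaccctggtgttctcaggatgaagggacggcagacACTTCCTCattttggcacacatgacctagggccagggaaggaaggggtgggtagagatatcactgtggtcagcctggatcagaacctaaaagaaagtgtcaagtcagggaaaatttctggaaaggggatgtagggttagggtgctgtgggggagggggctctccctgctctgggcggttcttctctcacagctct
Across all 32851 promoters in the table, GAGGAA occurred in 23.3% and GGAAGT in 19.7% of these 250-base windows, and each was present in 5 of the 8 promoters of the marker genes. The longer run AGGAAGT, which contains GGAAGT, occurred in 7.69% of all promoters and in those of C1qb (at -53) and C1qc (at -195), in both cases as its reverse complement. Positions count back from -1, the base before the start, to the first letter of the match. Also searched on both strands were TGCTGA (part of a Maf site, 16.1% of all promoters), AGGTCA (a nuclear receptor core site, 14.02%), the E-boxes CACGTG (6.02%), TCACGTG (3.13%, which contains the one before) and CATGTG (12.3%), TGACTCA (bound by Fos and Jun proteins, 4.46%), TATAAA (12.4%), TATAA (22.8%, contained in the one before) and CCAAT (33.8%). TGCTGA was found in 4 of the 8 promoters, 3 of them held AGGTCA, 3 held CATGTG, 3 held CCAAT, and TATAA was present in that of Timd4 alone, at -28. The other 4 were found in none of them, and a match of letters shows no binding. The motifs were picked with the sequences of the marker genes in view.

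Markers of resident identity came first. Clec4f (probe set 17468209) encodes a C-type lectin that mouse Kupffer cells make and that binds galactose-bearing glycans. It stood at 7.70, 7.80 and 7.97 on the regular diet, at 7.81, 7.89 and 7.71 on the high-fat diet and at 7.61, 8.17 and 7.81 with extract. The 3 ranges overlapped, with that of the extract group reaching past both others at each end, and the group means of 7.82 ± 0.14, 7.80 ± 0.09 and 7.86 ± 0.28 (SD, n = 3) were nearly equal. Timd4 (17248860) encodes a receptor for phosphatidylserine, the lipid that dying cells expose. Its values were 5.09, 5.73 and 5.84 on the regular diet, 5.54, 5.65 and 5.32 on the high-fat diet and 5.37, 5.69 and 5.48 with extract. Regular-diet replicate 1 was the lowest of all 9 arrays and regular-diet replicate 3 the highest, so the regular-diet group enclosed both others. Adgre1 (17339013) encodes an adhesion G-protein-coupled receptor that is the classical surface antigen of mouse macrophages. It read 5.49, 5.86 and 6.18 on the regular diet, 5.15, 6.07 and 5.86 on the high-fat diet and 5.55, 6.10 and 5.65 with extract. High-fat-diet replicate 1 was the lowest array, and the other 2 high-fat-diet arrays lay inside the range of the regular-diet arrays.

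Receptors for uptake followed. Vsig4 (17543365) encodes the complement receptor of the immunoglobulin superfamily, with which Kupffer cells catch complement-coated bacteria from blood. It had the widest spread of the list, with 6.64, 7.15 and 7.78 on the regular diet, 7.08, 7.30 and 6.82 on the high-fat diet and 6.93, 7.63 and 7.03 with extract. Regular-diet replicates 1 and 3 were again the lowest and highest of all arrays, and they differed by 1.14. Marco (17226327) encodes a class A scavenger receptor for bacteria and particles. Its arrays stood at 5.74, 5.85 and 6.41 on the regular diet, at 5.94, 5.70 and 5.76 on the high-fat diet and at 5.43, 6.07 and 6.25 with extract. The high-fat-diet arrays were close together and lay within the extract group's range of 0.82. Cd163 (17462843) encodes the receptor that clears complexes of haemoglobin and haptoglobin. It was measured at 5.51, 5.63 and 5.95 on the regular diet, at 5.60, 5.51 and 5.37 on the high-fat diet and at 5.65, 6.07 and 5.63 with extract. This was the 1 gene of the list with groups that did not overlap, since all 3 extract arrays were above all 3 high-fat-diet arrays, by a margin of 5.63 against 5.60.

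The secreted products completed the list. Cd5l (17398734) encodes a scavenger receptor cysteine-rich protein that macrophages release into blood. It read 7.20, 7.45 and 7.81 on the regular diet, 7.43, 8.16 and 7.61 on the high-fat diet and 7.23, 7.69 and 7.76 with extract. High-fat-diet replicate 2 was the highest array, and the other 2 of its group lay between the extremes of the regular diet. The chains of C1q, which recognises antibody complexes and dying cells and opens the classical complement pathway, are encoded by C1qa, C1qb and C1qc. They lie next to each other on chromosome 4 in the RefSeq annotation, with no other annotated gene starting between them. C1qa (17431619) stood at 7.23, 7.28 and 7.46 on the regular diet, at 7.34, 7.39 and 7.34 on the high-fat diet and at 6.87, 7.51 and 7.36 with extract. C1qb (17431607) stood at 7.88, 7.995 and 8.64, at 8.30, 8.59 and 8.25, and at 7.92, 8.68 and 8.22 in the same order of groups. C1qc (17431612) stood at 6.53, 6.53 and 6.79, at 6.44, 6.73 and 6.59, and at 6.30, 6.72 and 6.53. In all 3 C1q genes, extract replicate 1 was the lowest and replicate 2 the highest of the extract arrays, and the extract group spanned 0.64, 0.76 and 0.42.

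**Figure D1:**
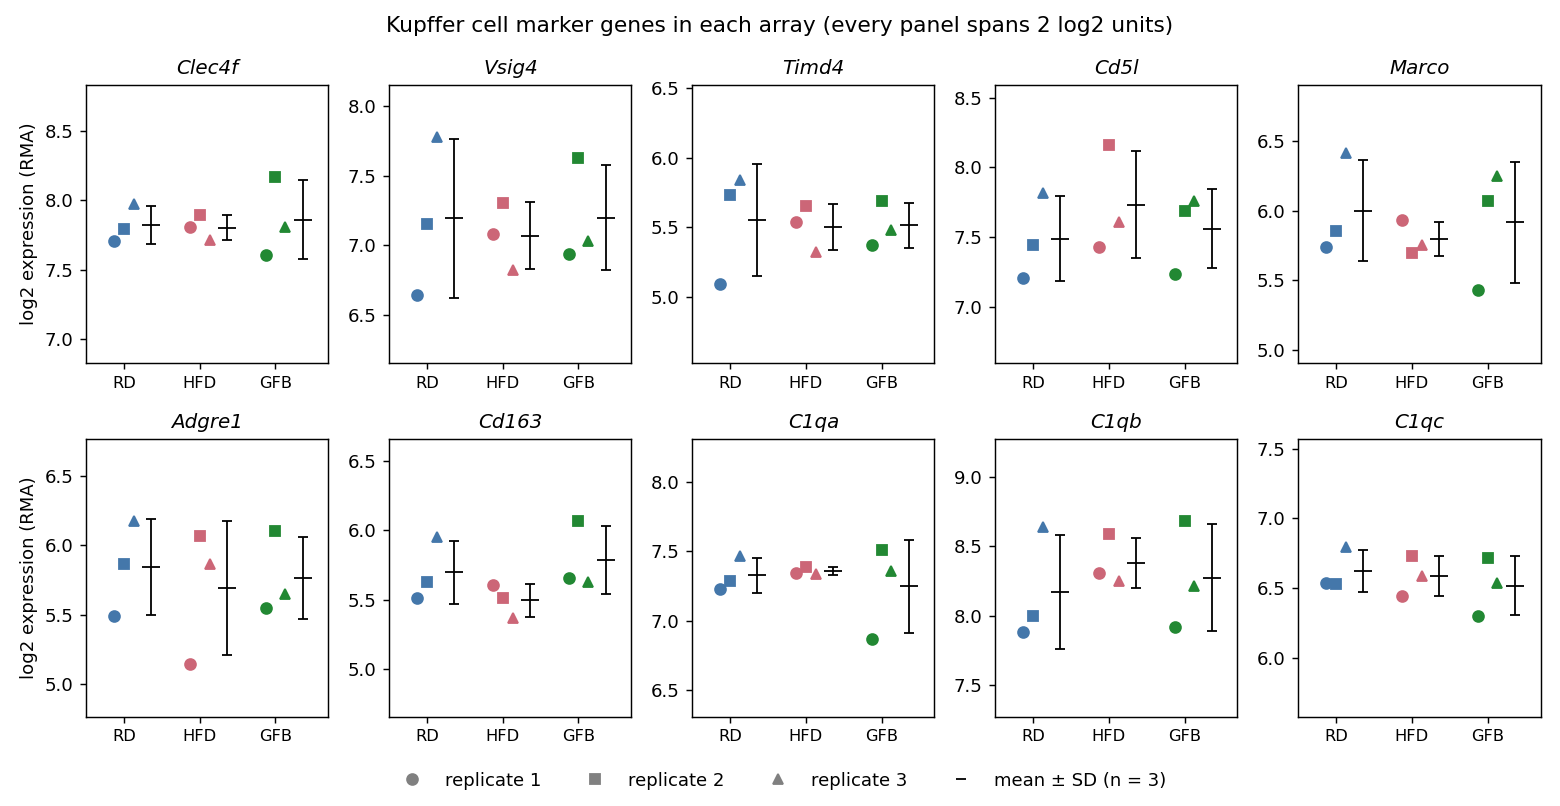
Log2 expression of the 10 Kupffer cell marker genes on each of the 9 arrays, by group (RD regular diet, HFD high-fat diet, GFB high-fat diet with extract), with symbols for the replicate number and a bar for the group mean ± SD (n = 3). The groups overlap in every panel except HFD and GFB for Cd163, and regular-diet replicate 3 is the highest of its group in all 10 panels.

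The order of the group means had no common form. The high-fat-diet mean was the lowest of the 3 for 6 genes (Clec4f, Vsig4, Timd4, Marco, Adgre1 and Cd163), the highest for 3 (Cd5l, C1qa and C1qb) and in between for C1qc. The distance from the lowest to the highest group mean ran from 0.05 for Timd4 to 0.29 for Cd163. It was larger than the gene's own SD within groups for Cd163 only, where that SD was 0.20, so for the other 9 genes neighbours in the order lay within the spread of single arrays. Between-group differences made up 0.914% (Timd4) to 34.2% (Cd163) of a gene's sum of squares over the 9 arrays, with a median of 7.68% for the list, beside 28.1% over all genes. Within groups, the median SD of the list was 0.30, beside 0.13 over all genes and 0.12 over the 11090 genes at or above the median mean. All 10 genes lay in the more variable part of those brighter genes, from percentile 76.8 (C1qc) to percentile 98.2 (Vsig4).

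The effect of the high-fat diet alone was read by comparing it with the regular diet. By limma with Benjamini-Hochberg adjustment over all genes, 0 of 10 genes passed an adjusted p under 0.05, beside 1.34% of all genes (0.821% higher and 0.518% lower). At an unadjusted p under 0.05 the count was also 0 of 10, beside 13.3% of all genes. Adjusted p ran from 0.618 for Cd163 to 0.97 for Clec4f. Differences lay between -0.20 ± 0.23 (Marco) and 0.24 ± 0.22 (Cd5l), 3 genes being higher and 7 lower, with a median of -0.04 beside 6.79e-05 over all genes. The groups overlapped for all 10 genes, whereas they did not overlap for 15.8% of all genes. The direction rested on single arrays. Leaving out regular-diet replicate 1 gave a list median of -0.18, and leaving out replicate 3 of that group gave 0.07. Without replicate 1 or 3 of the high-fat-diet group the list median was 0.01 in both cases. In the same regular-diet cases Vsig4 stood at -0.40 and 0.17, and Timd4 at -0.28 and 0.09, none of them passing.

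The extract was set against the high-fat diet alone to describe what it adds on that diet. Again 0 of 10 genes passed by limma, beside 0.00451% of all genes, which is 1 gene, higher with extract. The unadjusted count was 0 of 10, beside 5.98% of all genes. Adjusted p ran from 0.852 for Cd163 to 0.996 for Timd4. Cd163, the haemoglobin scavenger receptor gene, had the largest difference, 0.29 ± 0.15, which is a 1.22-fold higher signal with a 95% interval of 0.971 to 1.53. Its non-overlap is 1 of 10 genes, beside 9.69% of all genes. Without extract replicate 2 the Cd163 difference was 0.15, and without high-fat-diet replicate 3 it was 0.23. The other 9 ranged from -0.17 ± 0.22 (Cd5l) to 0.13 ± 0.28 (Vsig4), and all 3 C1q genes were slightly lower, with values of -0.11 ± 0.15, -0.11 ± 0.23 and -0.07 ± 0.13 for C1qa, C1qb and C1qc. The list median was 0.03, beside -0.00154 over all genes, and turned to -0.10 without extract replicate 2, -0.01 without extract replicate 3, -0.04 without high-fat-diet replicate 1 and -0.03 without high-fat-diet replicate 3. It was 0.13 without extract replicate 1 and 0.08 without high-fat-diet replicate 2.

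Extract-treated livers were compared with the regular diet to place them relative to the lean-diet group. By limma 0 of 10 genes passed, beside 0.442% of all genes (0.261% higher and 0.18% lower), and 0 of 10 had an unadjusted p under 0.05, beside 12.1%. Adjusted p ran from 0.8 for C1qc to 0.998 for Vsig4. Differences were the smallest of the 3 comparisons, from -0.10 ± 0.13 (C1qc) to 0.10 ± 0.23 (C1qb), with 5 genes higher, 5 lower and a median of -0.02 beside 0.000855 over all genes. All 10 overlapped, beside 14.6% of all genes that did not. The median was 0.14 without extract replicate 1 and -0.14 without extract replicate 2. It was 0.12 when regular-diet replicate 3 was left out and -0.14 when replicate 1 was. The 3 comparisons share arrays in pairs, so their values are not independent of one another. A moderated F test over all 3 groups gave 0 of 10 genes, beside 0.78% of all genes, with adjusted p from 0.619 to 0.988 and 0 of 10 at an unadjusted p under 0.05, beside 12.3%.

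**Figure D2:**
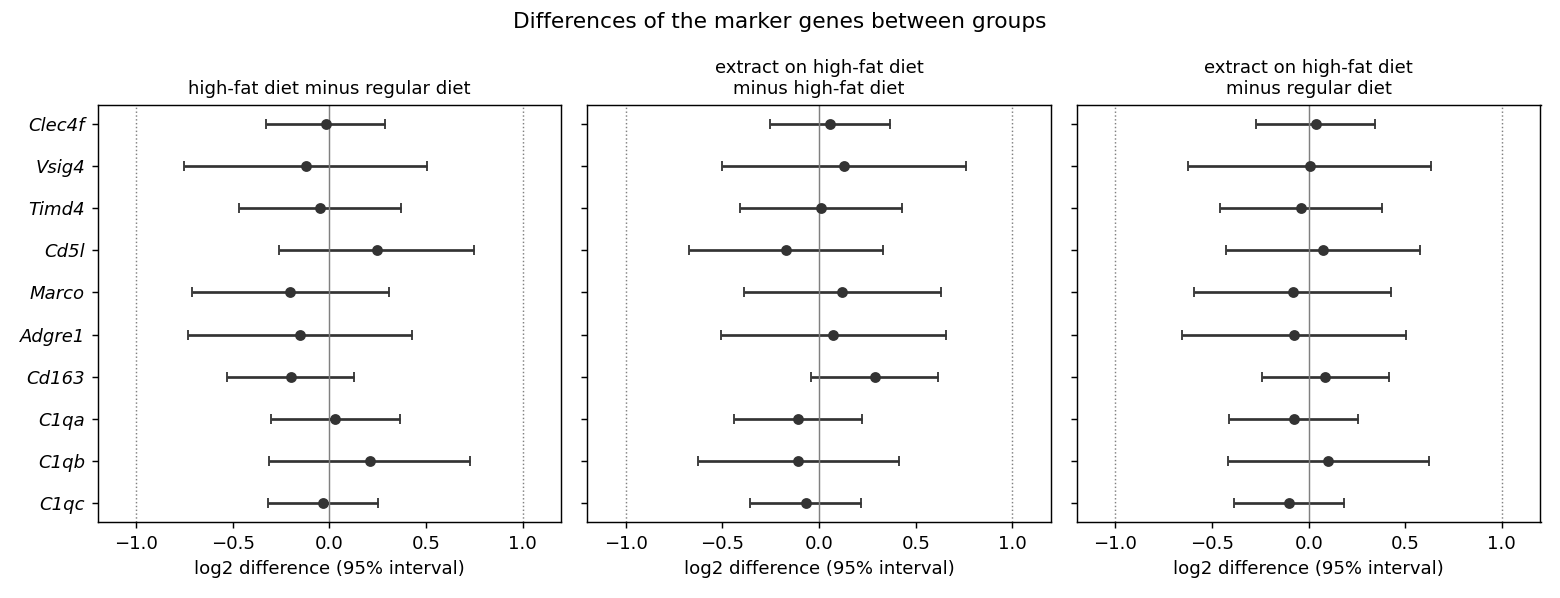
Log2 differences of the 10 genes in the 3 comparisons, with points for the limma estimate and bars for its 95% interval (3 arrays per group, spread estimated from all 9); dotted lines mark a 2-fold change. Every interval includes 0 and lies inside the dotted lines, and Vsig4 has the widest.

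The intervals show what sizes of change these arrays could hide. The 95% intervals of the 30 differences, each taken singly, ran from -0.75 at the low end (Vsig4, high-fat against regular diet) to 0.76 at the high end (Vsig4, extract against high-fat diet). All 10 genes in all 3 comparisons thus had intervals inside a 2-fold change in either direction on the scale of the deposited values. A 1.5-fold change lay outside the interval for fewer genes, 5 in the high-fat against regular-diet comparison (Clec4f, Timd4, Cd163, C1qa and C1qc). With extract against the high-fat diet there were 4 (Clec4f, Timd4, C1qa and C1qc), and with extract against the regular diet there were 6, the 5 first named and Cd5l. For Vsig4, Marco, Adgre1 and C1qb, a difference of that size lay inside the interval in each comparison. Array summaries tend to compress fold changes, so these limits apply to the measured signal.

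Within groups the genes moved between arrays largely as a set. Regular-diet replicate 3 was the highest of its group for 10 of 10 genes, beside 36.9% of all genes, and regular-diet replicate 1 the lowest for 9 of 10, beside 36.1%. In the high-fat-diet group, replicate 2 was the highest for 8 of 10 genes, beside 38.8% of all genes, the exceptions being Marco and Cd163, where replicate 1 was. In the extract group, replicate 2 was the highest for 8 of 10, beside 36.9% of all genes, with Cd5l and Marco highest in replicate 3. Extract replicate 1 was the lowest for 9 of 10, beside 34.9% of all genes, the exception being Cd163. The mean deviation of the 10 genes from their own 9-array means was 0.32 in regular-diet replicate 3 and 0.27 in extract replicate 2, where all 10 genes were above their means. It was -0.26 in regular-diet replicate 1 and -0.27 in extract replicate 1, where all 10 were below. High-fat-diet arrays stood closer together, at -0.10, 0.14 and -0.10. Over all genes the same deviations lay between -0.01 and 0.01, since the arrays had been normalized to each other.

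**Figure D3:**
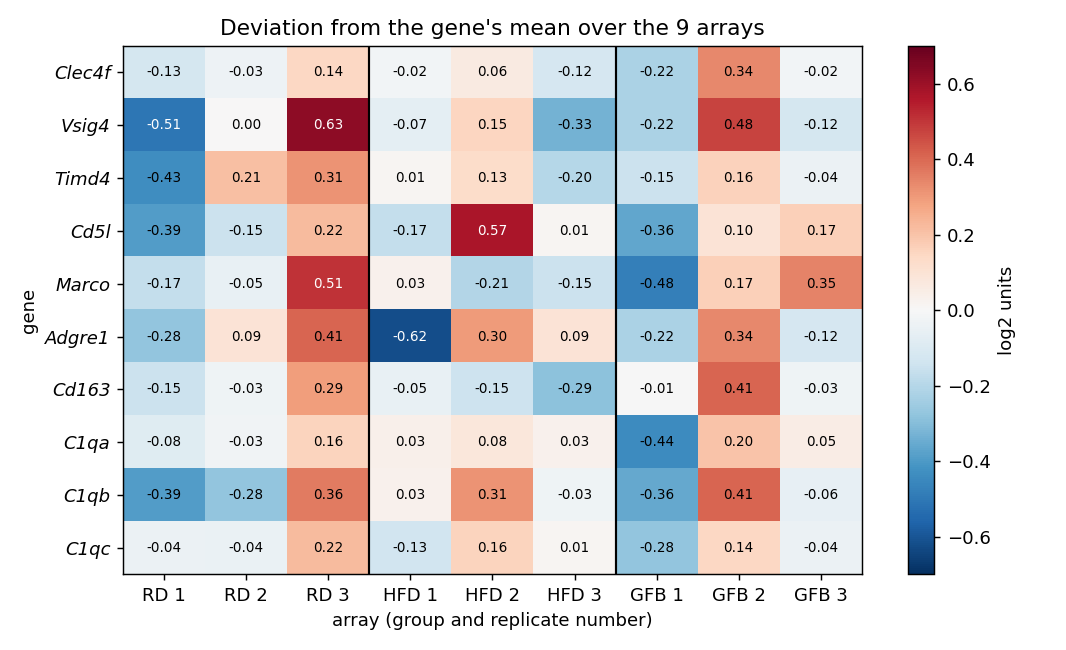
Deviation of each gene from its mean over the 9 arrays, in log2 units, with genes in rows, arrays in columns and vertical lines between the groups. Whole columns share a sign in regular-diet replicates 1 and 3 and extract replicates 1 and 2. All high-fat-diet columns hold both signs, and in each group the column means take both signs.

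As a description over the 9 arrays, which share labelling and normalization, all 45 pairs of the 10 genes correlated positively, with Pearson's r from 0.16 (Cd5l and Cd163) to 0.90 (Vsig4 and Timd4) and a mean of 0.64. Over all pairs of genes the mean r was 0.000547, and over pairs of brighter genes 0.00706. With group means removed the mean over the 45 pairs was 0.72 and the highest pair was Vsig4 and C1qb (0.94), with Vsig4 and Timd4 at 0.91. By Spearman's rho the highest pair was Clec4f and C1qa (0.98). Without regular-diet replicate 3 and extract replicate 2, the 2 arrays farthest from the median of the list's mean, the mean Pearson's r was 0.40. Then 38 of 45 pairs stayed positive and the lowest was -0.58. Leaving out arrays picked for their distance on the list's own mean can by itself lower r. Which arrays the relation rests on was thus not tested. Each gene was also set against the mean of the other 9. Vsig4 (0.91), Clec4f (0.89), C1qb (0.89) and C1qc (0.86) followed the rest most closely, and Cd163 (0.64) and Marco (0.65) least. Among the C1q genes r was 0.85 for C1qa and C1qc, 0.82 for C1qb and C1qc, and 0.78 for C1qa and C1qb.

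Among 10538 other annotated genes at or above the median mean, the 5 with the array pattern most like the mean of the list, by Pearson's r over the 9 arrays, were Dhps (0.92), Adgre4 (0.92), Sh3bgrl3 (0.92), Uri1 (0.91) and Ank3 (0.90). Adgre4 encodes a relative of the Adgre1 receptor that is also made by macrophages. It stood at 5.79, 6.02 and 6.52 on the regular diet, at 5.78, 6.08 and 5.93 on the high-fat diet and at 5.70, 6.17 and 5.96 with extract. Its highest array was thus regular-diet replicate 3, as for 5 of the 10 markers named above, Vsig4, Timd4, Marco, Adgre1 and C1qc. Dhps encodes deoxyhypusine synthase and Ank3 a cytoskeletal ankyrin, neither of which is a macrophage gene. Of 11079 brighter genes outside the list, 451 (4.07%) reached an r of at least 0.64, the lowest value of a member against the other 9.

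Further macrophage identity genes, a list of 18 measured genes such as Csf1r, Cd68, Folr2, Spic and Nr1h3, gave no call. By limma 0 of 18 passed in each of the 3 comparisons. The order here is high-fat against regular diet, extract against high-fat diet and extract against regular diet. At an unadjusted p under 0.05 there were 2, 1 and 2, beside 13.3%, 5.98% and 12.1% of all genes. The list's median differences were 0.14, 0.01 and 0.09. On the high-fat diet 14 of 18 were higher than on the regular diet and 4 lower. Groups did not overlap for 1, 2 and 2 of 18, beside 15.8%, 9.69% and 14.6% of all genes. For the 18 genes, r with the mean of the 10 markers had a median of 0.67, from -0.36 for Id3 to 0.90 for Csf1r, beside 0.04 over brighter genes. Csf1r, the receptor for the growth factor that macrophages need, read 6.60, 7.12 and 7.35 on the regular diet, 6.98, 7.24 and 7.04 on the high-fat diet and 6.85, 7.35 and 6.89 with extract. It was named after its values were seen, as the end of that range. Fcna, which encodes ficolin A, a lectin of the complement system that Kupffer cells make, had the smallest p of the list in the first 2 comparisons. Its arrays stood at 6.91, 6.98 and 6.91 on the regular diet, at 6.72, 6.71 and 6.51 on the high-fat diet and at 7.004, 7.38 and 7.06 with extract. No array of one group overlapped another for Fcna, with differences of -0.29 ± 0.11 on the high-fat diet (adjusted p = 0.278) and 0.50 ± 0.11 with extract against the high-fat diet (adjusted p = 0.422). It passed in neither.

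Genes of the other macrophage states and of the tissue around the Kupffer cells were counted in the same fit, on lists given in full by their counts. For monocytes and recruited macrophages, 0 of 9 passed in each comparison by limma. At an unadjusted p under 0.05 there were 4, 4 and 0, in the order used above, beside 13.3%, 5.98% and 12.1% of all genes. In every array 5 of 9 were under 4.74 (Ccr2, Itgam, Itgax, Chil3 and S100a4). Of these 9, 8 were higher on the high-fat diet than on the regular diet (median 0.29) and 8 were lower with extract than on the high-fat diet (median -0.19), comparisons that share the high-fat-diet arrays. The mean deviation of that list ran from 0.10 to 0.33 in the high-fat-diet arrays, from -0.21 to -0.01 on the regular diet and from -0.17 to -0.03 with extract. Unlike the Kupffer cell markers, its high-fat-diet arrays therefore lay above all others, a difference between lists that was not tested. For lipid-associated macrophages, a state described in fatty liver, 0 of 8 rose by limma. At an unadjusted p under 0.05 in either direction there were 4, 4 and 3 of 8, beside the same shares of all genes. On the high-fat diet 6 of 8 were higher than on the regular diet and 2 lower (median 0.10). With extract 1 was higher and 7 were lower than on the high-fat diet (median -0.15). Cd9, a membrane tetraspanin gene of that list, fell relative to the regular diet, by limma, without extract (-0.74 ± 0.10, adjusted p = 0.0145) and with it (-0.79 ± 0.10, adjusted p = 0.0206). The first call was lost without regular-diet replicate 3 (adjusted p = 0.0571) or high-fat-diet replicate 3 (0.0619). The second was lost without regular-diet replicate 3 (0.0875) or any 1 extract array (0.0593 to 0.119). Each call is 1 of 8 genes, beside 0.518% and 0.18% of all genes called lower.

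Sinusoidal endothelial cells, which border the Kupffer cells and feed them signals, had 0 of 9 genes passing in each comparison by limma. At an unadjusted p under 0.05 there were 4 of 9 on the high-fat diet relative to the regular diet, 4 of 9 with extract relative to the high-fat diet and 0 of 9 with extract relative to the regular diet, beside 13.3%, 5.98% and 12.1% of all genes. Their medians were -0.24 on the high-fat diet and 0.28 with extract against the high-fat diet. The mean deviation of that list lay between -0.27 and -0.01 on the high-fat diet, between -0.02 and 0.06 on the regular diet and between -0.05 and 0.22 with extract. For hepatocytes it lay between -0.12 and -0.02, between 0.01 and 0.09, and between 0.01 and 0.06, a narrower range than the -0.27 to 0.32 of the Kupffer cell markers. In each group the endothelial list was highest in the same array as the Kupffer cell markers, at 0.06 in regular-diet replicate 3, -0.01 in high-fat-diet replicate 2 and 0.22 in extract replicate 2. Extract replicate 1, low for the Kupffer cell markers, stood at 0.17 for the endothelial list. The part of either cell type in the array-to-array variation of the Kupffer cell markers was not tested. Niche signals, 8 genes that include the growth factor gene Csf1, had 0 passing in each comparison (3, 0 and 1 at an unadjusted p under 0.05). On the high-fat diet 5 of 8 were higher than on the regular diet and 3 lower, with a median of 0.03. Csf1 was among the higher, at 0.46 ± 0.12 (adjusted p = 0.116 by limma).

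**Figure D4:**
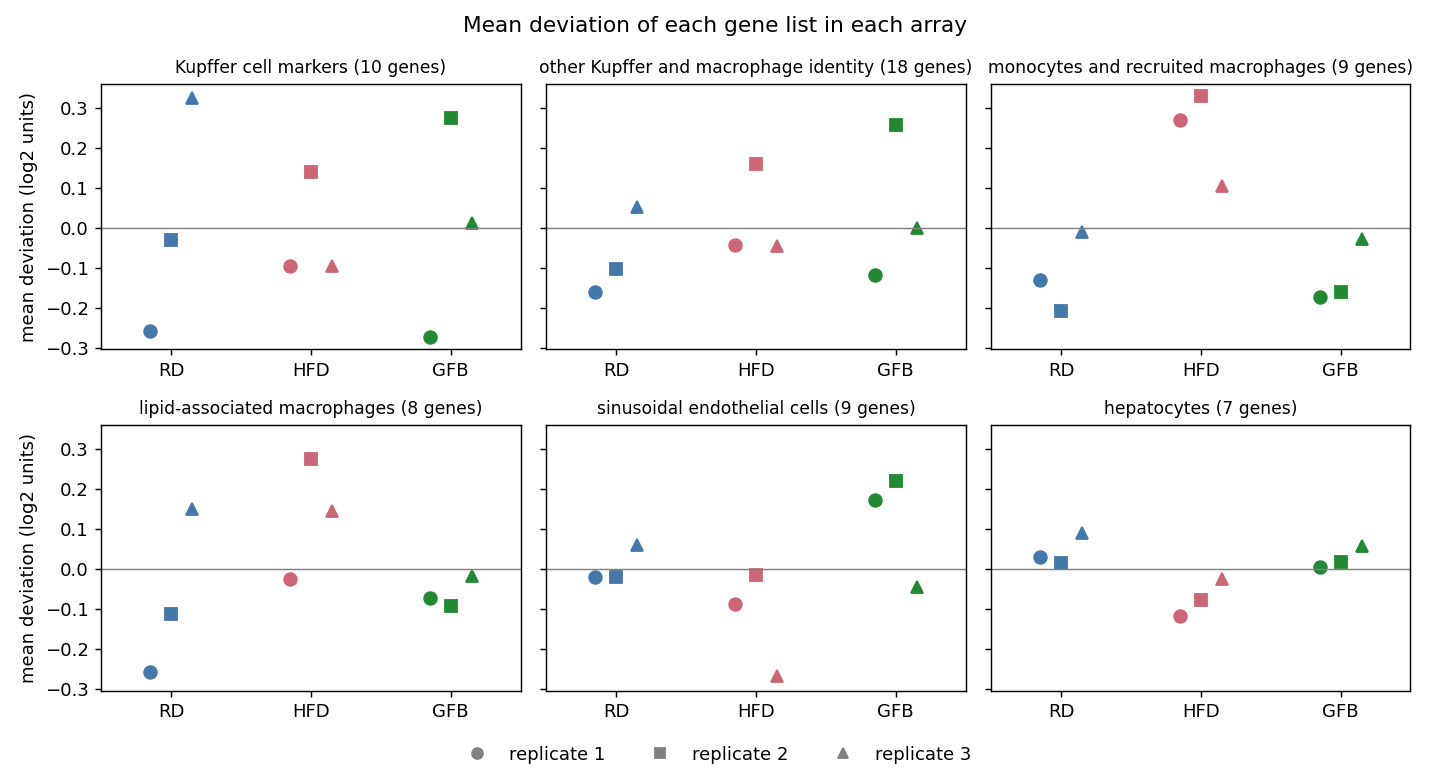
Mean deviation of 6 gene lists from the 9-array mean of each gene, in log2 units, for each array by group; symbols give the replicate number. The Kupffer cell markers spread within every group, from -0.27 to 0.27 with extract, and the monocyte list is above 0 in the high-fat-diet arrays alone.

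Lists of other clearance receptors, complement genes and haem genes gave a few calls between the high-fat and regular diets, beside the 1.34% of all genes called. The other comparisons are extract against the high-fat diet and against the regular diet. There 5.98% and 12.1% of all genes had an unadjusted p under 0.05. Of 12 other scavenger and clearance receptors, Colec12, which encodes a collectin scavenger receptor of vascular endothelium, rose (0.63 ± 0.09, adjusted p = 0.0145), and 0 of 12 passed in the other comparisons (3 and 2 at an unadjusted p under 0.05). It stood at 8.12, 7.93 and 7.99 on the regular diet, at 8.49, 8.74 and 8.69 on the high-fat diet and at 8.55, 8.44 and 8.48 with extract. The regular-diet arrays were below all 6 others. Colec12 did not pass without regular-diet replicate 2 or 3 or without high-fat-diet replicate 2 or 3 (adjusted p up to 0.0686, differences from 0.58 to 0.71). Of 8 measured genes of the classical complement pathway beyond C1q, C4b rose (0.60 ± 0.11, adjusted p = 0.0394) and all 8 were higher, with 0 of 8 passing in the other comparisons (0 and 2 at an unadjusted p under 0.05). C4b passed in only 1 of the 9 fits that left out an array (adjusted p up to 0.127), that without regular-diet replicate 1, and its probes may also take signal from its near-identical copy C4a. Of 8 genes that handle haemoglobin and haem, the cargo of Cd163, Hmox1, which encodes the enzyme that breaks down haem, rose on the high-fat diet (0.99 ± 0.18, adjusted p = 0.0345), and 0 of 8 passed in the other comparisons (3 and 3 at an unadjusted p under 0.05). This call held in 2 of the 9 fits that left out an array, those without extract replicate 1 or 3. All 8 genes of the haem list were higher on the high-fat diet than on the regular diet. At an unadjusted p under 0.05 in that comparison, the receptor, complement and haem lists had 3, 2 and 2 genes, beside 13.3% of all genes.

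The remaining lists held markers of other cell types. Between the high-fat and regular diets 1 of 4 peritoneal macrophage, 2 of 7 stellate and 1 of 7 hepatocyte genes passed by limma, beside 1.34% of all genes. Of 4 genes used for peritoneal macrophages, Prg4 rose on the high-fat diet (1.68 ± 0.27, adjusted p = 0.0233). It read 7.79, 6.84 and 6.83 on the regular diet, 9.10, 8.66 and 8.72 on the high-fat diet and 8.32, 8.39 and 8.96 with extract, and it encodes a lubricating glycoprotein that hepatocytes also secrete. Prg4 did not pass without regular-diet replicate 2 or 3 or without any 1 of the high-fat-diet arrays (adjusted p up to 0.0932). That list was split on the high-fat diet, with 2 of 4 genes higher than on the regular diet (Prg4 and Selp) and 2 lower (Gata6 and Alox15). Its median difference was 0.05. Alox15 and Selp were under 4.74 in every array. In the stellate list the collagen genes Col1a1 and Col3a1 rose on the high-fat diet (0.85 and 1.14), while the list as a whole had 4 of 7 genes higher and 3 lower, with a median of 0.07. Among hepatocyte markers Cps1, a urea cycle enzyme gene, fell (-0.66), with 4 of 7 higher, 3 lower and a median of 0.01. With extract relative to the high-fat diet 0 of 7 passed in both lists. There 5 of 7 stellate and 1 of 7 hepatocyte genes had an unadjusted p under 0.05, beside 5.98% of all genes. The calls of Col1a1, Col3a1 and Cps1 held in 5, 8 and 4 of the 9 fits that left out an array, with adjusted p up to 0.0686, 0.0538 and 0.0852 by limma. For bile duct cells, lymphocytes, neutrophils and dendritic cells, 0 of 4, 0 of 7, 0 of 6 and 0 of 4 genes passed in each comparison by limma. At an unadjusted p under 0.05, these 4 lists had 0 genes in the high-fat-diet comparisons. With extract against the regular diet they had 0, 0, 1 and 1, beside 12.1% of all genes.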

How the data were processed

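Liver RNA of 9 arrays in 3 groups of 3 was used, with groups from the sample titles. The submitters' processing notes name RMA and oligo, without versions, for the deposited log2 values per probe set. By its published design RMA corrects background, equalises the distributions of arrays by quantiles and fits each probe set by median polish, which can give arrays equal values: 56.9% of genes and 4 of the 10 members had such a tie. Genome build, scan dates and detection calls are not given in the sources used here.

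Of 41345 probe sets, 23521 had 1 gene symbol, and the brightest for each gene gave 22180 genes. Each member had 1 such probe set, and its symbol matched RefSeq by gene identifier. A mean per group was fitted with limma 3.58.1 in R 4.3.3 to all 9 arrays (6 residual and 3.28 prior degrees of freedom), with Benjamini-Hochberg adjustment over all genes and a two-sided threshold of 0.05. An exact permutation test of 3 arrays against 3 cannot go below p = 0.1 and was not used. As a check of the code, the fit was run on simulated data with independent noise for each gene. The check required only that large added changes be found, so it does not bear on differences as small as those of the members.

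The members, the 15 other lists (118 of 126 genes measured) and the naming rule were chosen with earlier results of these data known. Named were all members, up to 4 genes per list with the smallest p, genes that passed, and the 5 genes most like the list's mean. Alternatives were other moderation, brighter genes only, other probe sets, 2 further normalizations, weights per array, a block for the replicate number, the 6 arrays compared, an adjusted p under 0.1 and leaving out each array.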

Additional observations from a re-analysis of the deposited data

How the results depend on the processing

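No member passed in any comparison or in the F test under any of the 19 alternatives run for the comparisons or the 18 for the F test, and none had an unadjusted p under 0.05 there. The lowest adjusted p (limma) of a member was 0.366, for Timd4 between the high-fat and regular diets without regular-diet replicate 1. The 30 differences ranged from -0.40 to 0.44 over these settings. Their sign turned in at least 1 setting for 26 of 30, in 45 of 570 values, of which 44 came from leaving out an array and 1 from weights per array. The 4 that kept their sign were Cd163 in the high-fat against regular-diet comparison and in the extract against high-fat-diet comparison, and Cd5l and C1qb in the former. With an array left out, the list median ran from -0.18 to 0.07, from -0.10 to 0.13 and from -0.14 to 0.14 in the 3 comparisons. The labels state no pairing of arrays by replicate number. Deviations of same-numbered arrays correlated across genes at -0.05 to 0.17. Differently numbered arrays were not correlated for comparison, so these values cannot decide whether the number pairs arrays. With the replicate block 0 of 10 members passed in each comparison. For all genes tested the block moved the number of calls from 297 to 201, from 1 to 1 and from 98 to 68. Over all alternatives those numbers ran from 15 to 611, from 0 to 4 and from 2 to 267, lowest in the first with only the 6 arrays compared. Only 3 arrays per group and the spread of these genes limit what can be detected.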
